A study of Homo sapiens with 22 samples.

Results

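The genes described here are the transcription factor ATF4 and 30 genes of the integrated stress response, chosen by their symbols from a list of 31. All 31 were found in each of the gene tables, among 33538 genes in the table of untreated WM989 cells and among 36601 genes in the tables of WM983B cells and of treated WM989 cells. They fall into 6 transcription factors, 5 stress effectors, 10 enzymes of amino acid and one-carbon metabolism, 7 amino acid transporters and 3 genes of endoplasmic reticulum (ER) stress.

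In the integrated stress response, kinases that sense amino acid shortage, unfolded ER proteins, viral RNA or haem shortage phosphorylate the translation factor eIF2α, which lowers general translation while the messenger RNA of ATF4 is translated more. ATF4 binds DNA as a partner of C/EBP proteins and switches on genes for amino acid uptake, amino acid synthesis and, under prolonged stress, cell death. ATF4 is set largely at the level of translation, so its RNA level is not its protein level, and RNA was what was counted here.

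WM989 and WM983B are BRAF-mutant human melanoma lines, each grown from a single-cell clone, and the WM989 cells for sequencing of RNA were marked with lentiviral lineage barcodes. Untreated WM989 cells, sorted as EGFR- and NGFR-high or as a mixed population and then grown on, were profiled by droplet single-cell RNA sequencing in 8 wells of 1 sample, which came as r1 (wells 1 to 4) and r2 (wells 5 to 8), and untreated WM983B cells in 1 library. By the study's methods each sorted culture was divided over loading wells, so the wells are not all separate cultures, and which well came from which sort is not in the labels. In a treatment experiment, barcoded WM989 cells were left untreated or given TGFB1 (the cytokine TGF-β1), TGFBRi (an inhibitor of the TGF-β receptors) or PI3Ki (an inhibitor of the kinase PI3K), with 2 libraries each. The labels of each pair read Mix and Primed (MixControl and PrimedControl, for example) while the cells carry the names r1 and r2, and the match between the 2 namings is not settled. Chromatin accessibility was measured by ATAC-seq in WM989 cells sorted as EGFR_High, NGFR_High, EGFR_NGFR_High or Mix, with 3 libraries each. Mix is taken to be the sort that the study's methods call negative for both surface markers, which the labels do not say. The study's clusters divide the cells into a drug-susceptible and a primed state, the latter named for cells that more often survive BRAF and MEK inhibitors.

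Each molecule was counted by its unique molecular identifier (UMI), and levels below are UMIs summed over a group of cells and given per 1000000 UMIs of that group (CPM). The untreated WM989 sample held 12531 cells, 2843 of them primed, with 35882876 to 177318308 UMIs per well. The WM983B library held 1449 cells, 731 of them primed, and 102738398 UMIs, and the treatment experiment held 40021 cells with 70239657 to 122420544 UMIs per library. Cell barcode sequences found in more than 1 library were 0.152% of those in untreated WM989 and 0.487% of those in the treatment experiment. Melanocytic markers (SOX10, MITF, PMEL, MLANA, TYR and DCT) of drug-susceptible WM989 cells summed to 4879 CPM and those of primed cells to 202 CPM. Markers of the primed state (EGFR, NGFR, AXL and NT5E) summed to 29.3 and 316 CPM in the same cells. In WM983B the melanocytic sums were 2046 and 746 CPM. In a sum over cells, fewer cells that carry an RNA and less of it per cell cannot be told apart.

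Promoter sequences from RefSeq (GRCh38.p14, 250 bases before to 50 after the annotated start) matched 26 of the 31 genes by symbol, those without one being NUPR1, PYCR1, PSPH, ALDH1L2 and SHMT2. The C/EBP-ATF element, at which ATF4 and a C/EBP protein bind together, was searched as TGATGNAA on both strands, where its reverse reads TTNCATCA. It was found in 5 of the 26 promoters (19.2%) and in 1003 of all 27305 (3.67%). The 5 stretches are shown because they hold the letters that ATF4 is known to read. The capitals mark the element, written on the strand of the gene, with 10 bases on either side where the window allows.
ASNS, chr7:97872459-97872486, minus strand: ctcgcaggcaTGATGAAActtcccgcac
CHAC1, chr15:40953252-40953279, plus strand: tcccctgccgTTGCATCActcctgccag
HERPUD1, chr16:56931956-56931983, plus strand: acgcggcgggTTGCATCAgcccgtgccc
SLC3A2, chr11:62881726-62881748, plus strand: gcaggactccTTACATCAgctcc
SLC7A1, chr13:29595664-29595691, minus strand: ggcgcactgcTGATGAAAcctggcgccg

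The element began 68 bases before the annotated start in ASNS, 209 before it in CHAC1 and 176 before it in HERPUD1. It lay 7 bases after the start in SLC7A1 and 37 after it in SLC3A2. The annotation used for the accessibility values below places the principal SLC3A2 start 803 bases away from the RefSeq one. The ER stress element, read by other factors of the unfolded protein response, was searched as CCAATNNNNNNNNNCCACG on both strands. It was in 2 of the 26 promoters (7.69%) and in 22 of all 27305 (0.0806%). The capitals mark it in both genes, and neither stretch overlaps a C/EBP-ATF element.
HSPA5, chr9:125241387-125241413, minus strand: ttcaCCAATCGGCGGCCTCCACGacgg
XBP1, chr22:28800599-28800625, minus strand: ctggCCAATCGCGGAGGGCCACGaccg

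These letters describe the windows, and no match says only that the letters are not in them.

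Within the drug-susceptible WM989 cells, 1 small cluster carried most of these genes at a higher level than the rest. This cluster, number 10 of the study's clusters 0 to 10, held 466 cells, which were 4.81% of the drug-susceptible cells. Summed over the 31 genes its level was 3877 CPM, against 1336 to 2325 CPM in the other 10 clusters. ATF4 stood at 372 CPM in cluster 10 and 127 CPM in the other drug-susceptible cells, a ratio of 2.92. ASNS, which makes asparagine, stood at 125 and 21.6 CPM, a ratio of 5.79. DDIT3, the transcription factor CHOP that is linked to death under prolonged stress, stood at 238 and 44.1 CPM, a ratio of 5.41.

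The clusters were made from the same counts and the sample is single, so these are descriptions with no test. A gene was called when its ratio over both replicates was at least 1.5 (or its inverse was) and r1 and r2 had the same direction, among genes with at least 20 CPM in either group. By that rule 19 of the 27 members above the floor were higher in cluster 10 and 1 was lower, where 5.94% of all 5876 genes above the floor were higher and 9.29% were lower. CEBPG and SESN2 passed the floor through cluster 10 alone, the group in which they were high, so the floor was also set, after seeing the data, on the other drug-susceptible cells. Then 17 of 25 members were higher (68.0%) and 1 was lower, against 3.75% and 9.88% of 5525 genes. The members and the other gene lists were chosen with earlier results of these data known, so such shares are descriptions and no test. The median log2 ratio was 1.10 over these 25 and -0.10 over those genes, and 1.12 over all 31 members whatever their level. Of the 25, 17 had their highest level of all 11 clusters in cluster 10, against 11.3% of the 5525 genes.

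**Figure D1:**
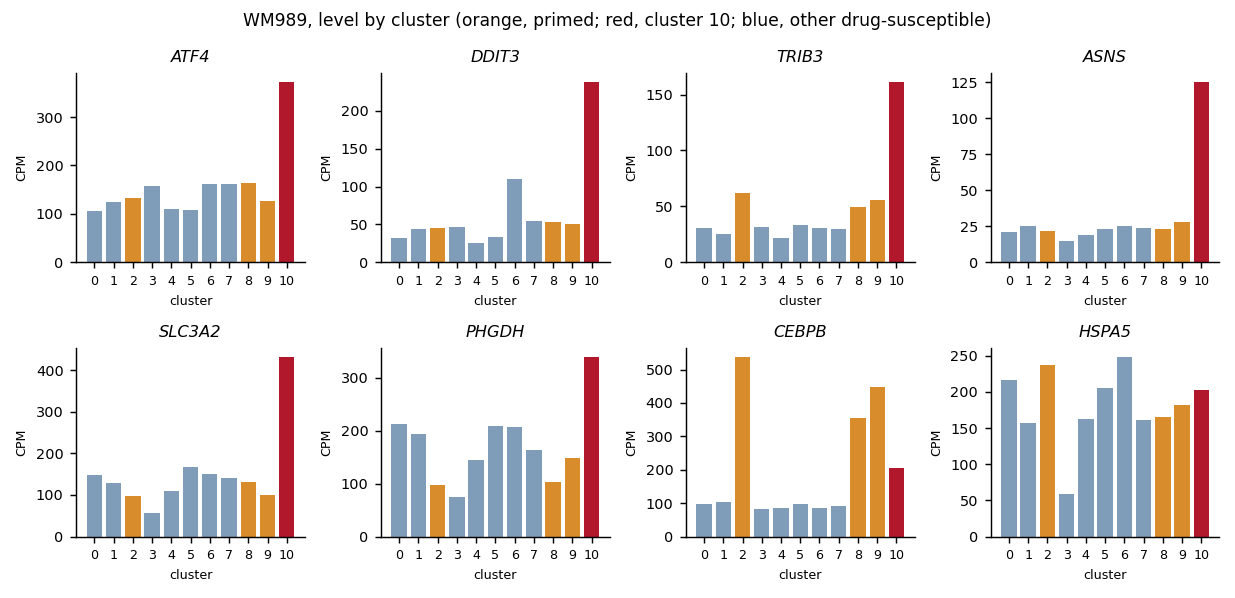
Level in CPM of 8 of the genes in each of the 11 clusters of untreated WM989 cells, with the primed clusters (2, 8 and 9) in orange, cluster 10 in red and the other drug-susceptible clusters in blue. The ATF4 bar stands at 372 CPM in cluster 10 and between 106 and 164 CPM elsewhere, whereas CEBPB is highest in cluster 2 (539 CPM) and HSPA5 in cluster 6 (249 CPM).

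Cluster 10 cells were found in 7 of the 8 wells, and 4 wells held at least 20 of them, with 128 in well 3, 222 in well 4, 50 in well 7 and 46 in well 8. ATF4 was at 365, 359, 480.4 and 369.7 CPM in the cluster 10 cells of these wells and at 131, 129, 131 and 135 CPM in their other drug-susceptible cells. DDIT3 was at 228, 272, 163 and 186 CPM in cluster 10 and at 40.3, 41.6, 50.1 and 49.6 CPM in the other cells. ASNS was at 119.5, 118, 180.1 and 149 CPM against 22.2, 21.8, 23.5 and 25.2 CPM. For all 3 genes the lowest cluster 10 value was above the highest value of the other cells. The share of all genes of which this holds is not given. The share of drug-susceptible cells that fell in cluster 10 was 8.68% and 6.20% in wells 3 and 4 and 2.58% and 2.80% in wells 7 and 8.

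Among the transcription factors, 5 of 6 were higher and 1 was lower, the 5 including CEBPG, which passed the floor through cluster 10 alone. NUPR1, a small stress-induced regulator, stood at 176 and 36.5 CPM, with a ratio of 3.85 in r1 and 8.01 in r2. CEBPB, a C/EBP protein, stood at 206 and 94.5 CPM, and CEBPG, a C/EBP protein that pairs with ATF4, at 29.8 and 11.3 CPM. ATF5, a relative of ATF4, went the other way, at 15.6 CPM in cluster 10 and 25.5 CPM in the other cells, with ratios of 0.516 in r1 and 0.955 in r2. The ATF5 call was lost when well 3, well 4 or well 8 was left out and when only G1 cells were used, where no member was lower, and when 1.5-fold was asked of r1 and r2 each.

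Of the 5 stress effectors, 4 were higher. The 4 include SESN2, which passed the floor only through the group in which it was high. TRIB3, a pseudokinase induced by ATF4 and CHOP, stood at 161 and 28.7 CPM, a ratio of 5.61. SESN2, a leucine sensor upstream of the growth kinase mTORC1, stood at 23.0 and 7.21 CPM. PPP1R15A (GADD34), which directs the removal of the phosphate from eIF2α, stood at 128 and 55.2 CPM, and GDF15, a secreted stress cytokine, at 232 and 99.8 CPM. These ratios ran from 2.31 to 5.61. CHAC1, which breaks down glutathione, was at 0.249 and 0.176 CPM, below the floor in both groups, although its promoter holds the element shown above.

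Of the enzymes, 6 of 10 were higher, at ratios of 1.59 to 5.79. In serine synthesis, PHGDH (the first step) stood at 340.4 and 175 CPM and PSAT1 (the second) at 86.7 and 40.5 CPM, while PSPH (the last) stood at 38.4 and 29.9 CPM and was not called, with a ratio of 1.22 in r1 and 1.74 in r2. In the mitochondrial folate path, SHMT2 stood at 193 and 119 CPM and MTHFD2 at 177 and 111 CPM. In proline synthesis, PYCR1 stood at 98.6 and 60.6 CPM, whereas ALDH18A1 was nearly level at 22.8 and 21.4 CPM. ALDH1L2 at 9.22 and 3.10 CPM and PCK2 at 17.6 and 9.39 CPM lay below the floor.

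Of the 7 transporters, 2 were called, and SLC6A9, a glycine carrier, lay below the floor at 1.12 and 0.475 CPM. SLC3A2, the heavy chain that carries several amino acid exchangers to the membrane, stood at 433 and 128 CPM, a ratio of 3.38. SLC7A5 (LAT1), its partner in the uptake of large neutral amino acids, stood at 75.5 and 34.8 CPM, a ratio of 2.17. The ratios of SLC7A1, a carrier of arginine and lysine, and of the neutral amino acid carriers SLC38A2, SLC1A4 and SLC1A5 were 1.47, 1.32, 1.25 and 1.25. By replicate, SLC7A1 had 1.63 in r1 and 1.53 in r2, SLC38A2 1.31 and 1.46, SLC1A4 1.09 and 1.85 and SLC1A5 1.34 and 1.68, so for SLC7A1 and SLC1A5 the pooled ratio lay below both. Of the ER stress genes, XBP1, a transcription factor of the unfolded protein response, stood at 124 and 46.9 CPM, and HERPUD1, a part of ER-associated degradation, at 125 and 44.9 CPM. HSPA5 (BiP), the main ER chaperone, stood at 203 and 169 CPM and was not called. Of the 5 genes whose promoters hold the C/EBP-ATF element shown above, ASNS, SLC3A2 and HERPUD1 were thus called higher, and SLC7A1 and CHAC1 were not. Of the members whose windows lack it, ATF4, DDIT3, TRIB3 and PHGDH were among those called higher, and SLC38A2 and ALDH18A1 among those not called. Of those with the ER stress element XBP1 was called higher and HSPA5 was not. Whether the calls go with either element was not tested.

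Across the 11 clusters the genes did not share one order. ASNS was next highest in cluster 9 (28.2 CPM) and lowest in cluster 3 (14.7 CPM), so cluster 10 stood apart at 125 CPM. DDIT3 was next highest in cluster 6 (110.2 CPM) and lowest in cluster 4 (25.8 CPM). SLC3A2 ran from 57.2 CPM in cluster 3 to 168 CPM in cluster 5 outside cluster 10. The primed clusters led for others, with CEBPB at 539 CPM in cluster 2, SLC38A2 at 147 CPM in cluster 2 and PPP1R15A at 144 CPM in cluster 9, against 206, 46.6 and 128 CPM in cluster 10. SLC1A4 was highest in cluster 4 (81.2 CPM), SLC1A5 and HSPA5 in cluster 6 (61.5 and 249 CPM) and ALDH18A1 in cluster 5 (26.1 CPM).

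In the treatment experiment, whose clusters are numbered anew, ATF4 ran from 83.3 to 143 CPM over clusters and its highest level was shared by clusters 7 and 8. DDIT3 was highest at 87.5 CPM and TRIB3 at 50.9 CPM, both in a primed cluster of that experiment. No cluster there stood apart in ATF4 as cluster 10 did in the untreated sample.

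Shares of cells with a UMI were compared at equal depth. After each cell was thinned to 10000 UMIs, 73.6% of cluster 10 cells held a DDIT3 UMI (exact 95% binomial interval 69.4 to 77.6%, counting error only) against 29.5% (28.6 to 30.4%) of the other drug-susceptible cells. Unthinned, these shares were 95.3% and 72.3%, at median depths of 45488 and 53120.0 UMIs per cell. For ASNS the thinned shares were 57.3% and 17.8%, and for TRIB3 62.2% and 22.4%. Not every gene had a higher share, since SLC1A4 was at 40.1% in both, and HSPA5 was at 62.2% (57.7 to 66.7%) and 69.5%, which goes against its CPM, so no order was read for it.

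Cluster 10 also differed from the other drug-susceptible cells in cell cycle and mitochondrial reads. Its cells were called G1 in 82.8% of cases against 22.6%, and the median share of mitochondrial UMIs was 11.1% against 14.2%. Among G1 cells alone, 20 members were higher, with ATF4 at 359 and 116 CPM and DDIT3 at 229 and 34.0 CPM. The share of all genes higher among G1 cells is not given. There too CEBPG (29.4 and 8.85 CPM) and SESN2 (21.7 and 6.58 CPM) were above the floor in cluster 10 alone. Its melanocytic markers summed to 5496 CPM (6 of 6 above 1 CPM), its primed-state markers to 37.4 CPM, most of it NT5E, keratinocyte markers were at 0 for 3 of 3, and leukocyte markers summed to 0.290 CPM. Fibroblast markers summed to 32.3 CPM, of which LUM was 30.9 CPM, and to 33.5 CPM over all drug-susceptible cells. The primed-state marker NGFR was at 6.44 CPM in cluster 10 and 0.857 CPM in the other drug-susceptible cells, a ratio of 7.51 (9.67 in r1 and 11.1 in r2), below the floor, and its part in the result was not tested.

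Other genes of the pathway were compared in the same way. Of 20 other ATF4 targets, 12 were above the floor and 9 of these were higher and none lower, where 5.94% and 9.29% of all 5876 genes above it were. Among the 9 were SLC7A11, the cystine importer (70.6 and 18.0 CPM), KLHL24 (30.1 and 10.1 CPM) and DDIT4, an mTORC1 inhibitor (228 and 83.7 CPM). Below the floor, ATF3 (13.7 and 1.70 CPM), FAM129A (9.34 and 1.92 CPM) and CTH (16.6 and 3.56 CPM) had larger ratios than SLC7A11. SLC7A11, KLHL24, GPT2, VEGFA and, of the ER genes called below, DNAJB9 passed the floor through cluster 10 alone. The count of 9 is therefore not one over genes above the floor in the other cells. Of 20 cytosolic aminoacyl-tRNA synthetases, which charge tRNAs, 6 were higher, led by CARS (65.1 and 27.1 CPM), GARS (157 and 70.2 CPM) and WARS (86.3 and 39.9 CPM). Of 10 genes for eIF2α, its kinases and eIF2B, 9 were above the floor and none was called, EIF2AK3 (PERK) lying below it at 5.31 and 4.23 CPM. Of 15 ER chaperones and degradation genes, 13 were above the floor, and DNAJB9 was higher (23.3 and 7.90 CPM) and CALR (391 and 607 CPM) and CRELD2 (49.5 and 93.8 CPM) were lower. Of 6 mitochondrial chaperones and proteases, HSPE1 was lower (515 and 916 CPM).

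Between primed and drug-susceptible WM989 cells, 6 members were called higher and 6 lower of 25, shares of 24.0% each, and ATF4 was nearly level. CEBPB was at 99.3 CPM in drug-susceptible and at 486 CPM in primed cells (ratio 4.90), and SLC38A2 at 35.7 and 129 CPM (3.62). SLC7A5 was at 36.6 and 10.7 CPM in the same order (0.294), and PSAT1 at 42.5 and 18.9 CPM (0.445). ATF4 was at 138 and 136 CPM, DDIT3 at 52.5 and 48.0 CPM and ASNS at 26.1 and 23.6 CPM. Among G1 cells these were, in the same order, 153 and 141 CPM, 63.7 and 47.7 CPM, and 37.5 and 23.1 CPM. Drug-susceptible G1 cells outside cluster 10 held 116 CPM of ATF4, 34.0 CPM of DDIT3 and 21.7 CPM of ASNS. Primed cells were called G1 in 73.7% of cases and drug-susceptible cells outside cluster 10 in 22.6%.

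The states too were defined from these counts, so no test was made. Of all 6316 genes above the floor, 17.7% were higher and 14.7% lower by the same rule. Each of the 25 members had at least 20 CPM in drug-susceptible cells, and with the floor set on those cells 9.97% of 5526 genes were higher and 16.8% lower. The median log2 ratio was -0.13 over the members and -0.00 over all genes (-0.08 over the 5526). Another scaling (TMM) moved every log2 ratio of this contrast by -0.18 and gave 4 higher and 8 lower, and asking 1.5-fold of r1 and r2 each gave 4 higher and 6 lower, TRIB3 (1.99 in r1 and 1.39 in r2) and GDF15 (2.06 and 1.31) not being among them. The 6 higher genes comprised 2 transcription factors (CEBPB and NUPR1), 3 stress effectors (PPP1R15A, TRIB3 and GDF15) and the transporter SLC38A2. The 6 lower genes comprised 5 enzymes (PSAT1, PYCR1, MTHFD2, SHMT2 and PHGDH) and the transporter SLC7A5. Among G1 cells alone, TRIB3 (61.1 CPM primed, 49.8 CPM drug-susceptible) and NUPR1 (87.6 and 64.9 CPM) differed by less than 1.5-fold. The other higher genes and the lower genes still differed by more than 1.5-fold in their direction. Drug-susceptible G1 cells outside cluster 10 held 29.2 CPM of TRIB3 and 45.3 CPM of NUPR1, more than 1.5-fold below the primed values.

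The values in the 8 wells follow, with wells that share a culture counting loadings of it and not separate replicates. CEBPB had a lowest, median and highest well value of 317, 445 and 547 CPM in primed cells and of 68.7, 114 and 131 CPM in drug-susceptible cells. SLC38A2, a sodium-coupled carrier of neutral amino acids, had 84.5, 105 and 178 CPM against 30.3, 35.9 and 48.5 CPM. PPP1R15A had 106, 124 and 133 CPM against 49.3, 58.1 and 85.0 CPM. In none of these 3 genes did the wells of the 2 states overlap. The share of all genes without such overlap is not given, here or for the genes below. TRIB3 had 40.8, 50.5 and 81.9 CPM against 19.7, 28.9 and 44.4 CPM, which overlap, although primed cells were above the drug-susceptible cells of their own well in 8 of 8 wells. NUPR1 behaved likewise, with 43.0 to 112 CPM against 19.2 to 59.0 CPM and 8 of 8 wells higher. As given above, TRIB3 and NUPR1 differed by less than 1.5-fold among G1 cells, and these well values are over all phases. GDF15 had 113, 166 and 217 CPM against 89.0, 111 and 208 CPM and was higher in primed cells in 6 of 8 wells.

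Of the lower genes, SLC7A5 had 5.83, 11.5 and 16.8 CPM in primed cells and 22.1, 40.5 and 50.6 CPM in drug-susceptible cells. PSAT1 had 13.5, 16.4 and 27.6 CPM against 29.0, 42.9 and 51.0 CPM. PYCR1 had 27.9, 32.7 and 36.2 CPM against 45.5, 58.9 and 73.6 CPM. The wells of the 2 states did not overlap for these 3 genes, nor for SHMT2 (60.9 to 82.3 against 96.4 to 140.2 CPM) or PHGDH (98.8 to 143 against 144 to 222 CPM). For MTHFD2 they overlapped (44.7 to 88.1 against 79.8 to 151 CPM), with primed cells lower in 8 of 8 wells. ATF4 lay within 133 to 142 CPM in the primed state and 106 to 148 CPM in the other. HERPUD1, at a ratio of 1.41, was not called, yet its wells did not overlap (53.5 to 76.8 against 42.0 to 51.9 CPM).

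**Figure D2:**
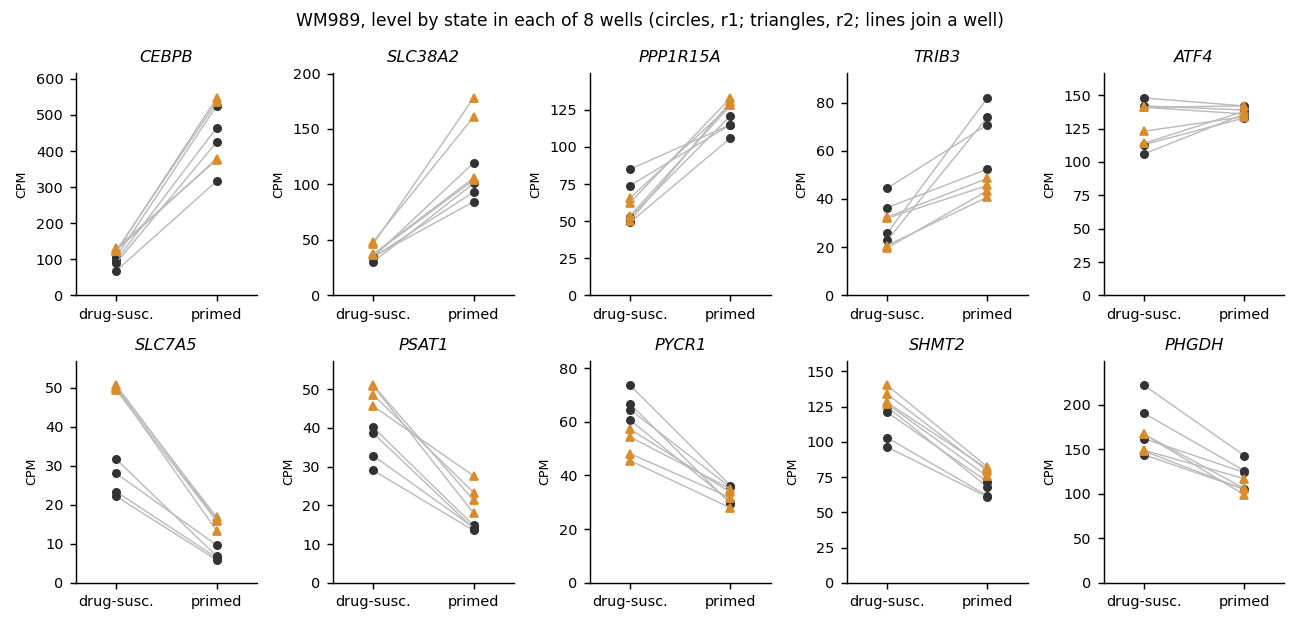
Level in CPM of 10 of the genes in drug-susceptible and primed cells of each of the 8 wells of untreated WM989 cells, with circles for r1, triangles for r2 and a line joining the values of a well. CEBPB, SLC38A2 and PPP1R15A are higher in primed cells in every well and above all drug-susceptible values, SLC7A5, PSAT1, PYCR1, SHMT2 and PHGDH are lower in every well, and ATF4 stays between 106 and 148 CPM in both states.

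Wells differed in composition, the cells having been sorted before they were grown on, with 6.85% to 9.42% primed cells in wells 3, 4, 7 and 8 and 56.9% to 79.7% in wells 1, 2, 5 and 6. Drug-susceptible cells of r1 wells held 22.1 to 31.6 CPM of SLC7A5 and those of r2 wells 49.3 to 50.6 CPM, so the levels of that gene went with the replicate, while both replicates had it lower in primed cells.

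The treatment experiment gives primed and drug-susceptible cells in 8 further WM989 libraries, with 25 to 1757 primed cells in each. Only 2 of the 8 are untreated, and most of the 4077 primed cells are in TGFB1 libraries (1577 in r1 and 1757 in r2). Sums over all its cells therefore mix treatments. GDF15 did not repeat its direction there, with a lowest, median and highest library value of 48.8, 70.1 and 142 CPM in primed cells and of 92.3, 123 and 190.4 CPM in drug-susceptible cells. It was lower in primed cells in 7 of 8 libraries, the other being untreated r1 (142 CPM in 94 primed cells and 132 CPM in drug-susceptible cells), while untreated r2 had 81.3 and 123 CPM. CEBPB was higher in primed cells in 8 of 8 libraries, at 80.6 to 172 CPM against 57.8 to 85.7 CPM. PPP1R15A was too, at 92.2 to 166 CPM against 50.2 to 67.1 CPM, and so was SLC38A2, at 59.3 to 116 CPM against 49.0 to 59.8 CPM. PSAT1, PHGDH, SHMT2 and MTHFD2 were lower in primed cells in 8 of 8 libraries, MTHFD2 at 52.6 to 96.0 CPM against 105 to 141 CPM. PYCR1 was lower in 7 of 8 libraries, the other being TGFB1 r1, but the states overlapped (31.1 to 68.7 against 55.0 to 72.9 CPM). Over all cells it was nearly level at 62.0 CPM in primed and 63.2 CPM in the others. In untreated r1 and r2 it was at 53.7 and 53.1 CPM in primed and at 64.2 and 57.8 CPM in drug-susceptible cells. NUPR1 was higher in 7 of 8 libraries, the other being TGFBRi r2, and also overlapped (25.4 to 87.6 against 21.1 to 50.4 CPM). TRIB3 was higher in primed cells in the 4 untreated and TGFBRi libraries and lower in 3 of the others, with 17.1 CPM in both states of TGFB1 r1. SLC7A5 was lower in 6 libraries and higher in TGFBRi r1 and PI3Ki r1. These states too were defined from the cells' own counts.

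Among the other lists, 10 of the 20 other ATF4 targets were above the floor, and 3 were higher in primed cells, namely VEGFA, a growth factor for blood vessels that passed the floor through primed cells alone (255 and 10.4 CPM), DDIT4 (331 and 89.9 CPM) and CARS (52.0 and 28.8 CPM), and EIF4EBP1, which restrains cap-dependent translation, was lower (187 and 301 CPM). CARS is also counted among the aminoacyl-tRNA synthetases, of which it was the 1 called. EIF2AK2 (PKR), an eIF2α kinase that senses double-stranded RNA, was higher in the primed state (152 and 94.1 CPM), and EIF2B3 was lower (22.0 and 35.8 CPM). SDF2L1, an ER chaperone partner, was lower (91.0 and 150.3 CPM), as was the mitochondrial chaperone HSPD1 (704 and 1168 CPM). Of all genes above the floor 17.7% were higher and 14.7% lower, so single calls in these lists are not read as results about the lists.

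In WM983B, 1 of the genes above the floor, GDF15, differed by 1.5-fold between the states. GDF15 was at 61.1 CPM in primed cells (95% Poisson interval 58.9 to 63.3 CPM, counting error only) and 189 CPM in drug-susceptible cells (185 to 192 CPM), a ratio of 0.324. No member was higher and GDF15 was the 1 lower of the 25 members above the floor, where 4.10% of all 6856 genes were higher and 1.97% lower. CEBPG and ALDH1L2 passed the floor through primed cells alone, and with the floor set on drug-susceptible cells 0 of 23 members were higher and 1 was lower, against 2.69% and 2.06% of 6538 genes. The median log2 ratio was then 0.08 over the members and 0.01 over those genes. CEBPB was at 118 and 109 CPM, ATF4 at 237 and 204 CPM, PSAT1 at 161 and 165 CPM and SLC7A5 at 81.6 and 120.0 CPM. HSPA5 was at 627 and 463 CPM, a ratio of 1.35. Below the floor, NUPR1 was at 7.90 and 18.5 CPM (ratio 0.427), ASNS at 1.82 and 0.816 CPM (2.23) and SLC6A9 at 2.09 and 1.15 CPM (1.82), while CHAC1 was at 11.4 and 8.44 CPM (1.35).

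With 1 library the contrast has no replicate check. GDF15 therefore had a ratio of 0.324 in WM983B and of 1.69 in the untreated WM989 sample, and CEBPB had ratios of 1.08 and 4.90. Of the other ATF4 targets, DDIT4 (118 and 59.8 CPM) and VEGFA (42.2 and 20.1 CPM) were higher in primed WM983B cells. Levels are not set across the gene tables, because the tables list different gene sets. ASNS was at 26.1 CPM in drug-susceptible cells of the untreated WM989 sample and at 1.77 and 1.76 CPM in untreated libraries of the treatment experiment, which also differ in experiment and samples. GENCODE release 44 lists a long noncoding RNA over ASNS, and whether its reads were split in some tables was not tested.

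**Figure D3:**
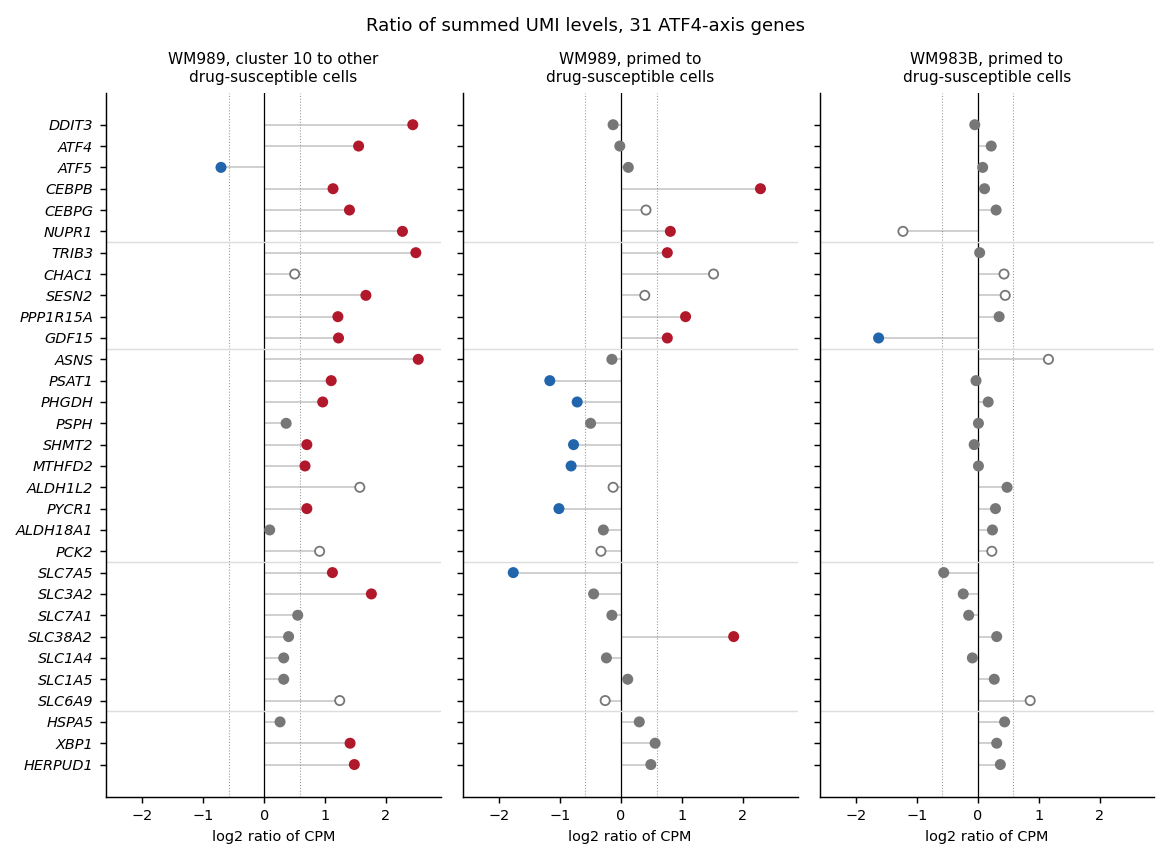
Log2 ratio of CPM for the 31 genes, grouped by role, in cluster 10 to other drug-susceptible WM989 cells, in primed to drug-susceptible WM989 cells and in primed to drug-susceptible WM983B cells, with red and blue for calls of 1.5-fold, open points for genes under 20 CPM in both groups and dotted lines at 1.5-fold. Red points number 19 in the first panel, 6 in the second and 0 in the third, and blue points 1, 6 and 1. The 19 include CEBPG and SESN2, which passed the floor through cluster 10 alone.

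The treatment experiment asked how the genes move when the TGF-β and PI3K pathways are pushed. Because the TGFB1 libraries held more primed cells (29.1% and 31.3% against 2.26% and 4.47% in untreated libraries), the main values are from drug-susceptible cells alone. The state of a cell was called after treatment from the same counts. The drug-susceptible cells of a treated library are therefore those left in that state, and need not match the untreated ones. How much of a change goes with this selection was not tested. Counts summed per library were tested with edgeR's quasi-likelihood test over 17914 genes, with r1 and r2 as a block and Benjamini-Hochberg adjustment, and 30 of the 31 genes entered it (CHAC1 was too low). The 3 treatments share the same 2 untreated libraries, so their values are not independent of each other. By the study's methods r1 and r2 were carried in parallel, each sorted into a well, expanded and split over the treatments. The block takes out the mean difference between r1 and r2. The p-values therefore rest on how far the treatment changes differ between these 2, pooled over the treatments, and not on the spread between separate cultures. The fit also drew the spread of each gene toward that of all genes tested. A small p-value is therefore not from the r1 and r2 values of that gene alone. Where libraries below are said to lie above or below others, the share of all genes of which this holds is not given. Those statements and all CPM are without the TMM scaling that the log2 fold changes include.

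TGFB1 raised SLC7A5, its partner SLC3A2 and the ER stress gene HSPA5, and lowered TRIB3, in drug-susceptible cells. XBP1, also of the 3 ER stress genes, was called higher but not under all 13 alternatives. SLC7A5 was at 34.2 and 36.7 CPM in untreated r1 and r2 and at 73.6 and 80.2 CPM with TGFB1 (log2 fold change 1.10 ± 0.07 SE, adjusted p = 3.34e-11 by edgeR). SLC3A2 went from 137 and 132 CPM to 198 and 186 CPM (0.49, adjusted p = 6.47e-06 by edgeR). GDF15 went from 132 and 123 to 190 and 169 CPM (0.48, adjusted p = 1.22e-05). For all 3 genes both treated libraries lay above both untreated ones.

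TGFB1 called 6 members higher and 7 lower, where 8.56% of all genes were higher and 6.32% lower, and the median log2 change was -0.03 over the members and 0.00 over all genes. ATF5 (26.9 and 25.4 CPM with TGFB1, log2 fold change 0.43), HSPA5 (179 and 194 to 227 and 249 CPM) and XBP1 (43.2 and 46.9 to 53.7 and 56.9 CPM) were the other higher members. HERPUD1, at 52.6 and 55.2 CPM untreated and 61.5 and 61.3 CPM with TGFB1, did not pass (0.18, adjusted p = 0.0722 by edgeR). TRIB3 fell from 25.8 and 25.5 to 17.1 and 19.6 CPM (-0.50, adjusted p = 1.70e-05 by edgeR). The other 6 lower members were the enzymes ASNS, ALDH1L2, PHGDH, SHMT2 and PSAT1 and the transcription factor CEBPB, with log2 changes of -0.70 to -0.24. PHGDH went from 232 and 209 to 190 and 174 CPM, SHMT2 from 106 and 101 to 88.4 and 87.3 CPM, and CEBPB from 78.6 and 85.7 to 68.0 and 72.8 CPM. In each of these 3 genes the treated libraries lay below the untreated ones. ATF4, at 116 and 124 CPM untreated and 99.1 and 116 CPM with TGFB1, did not pass (-0.17, adjusted p = 0.0894), and DDIT3 was at 25.8 and 28.6 against 25.5 and 30.6 CPM.

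Of the 13 TGFB1 calls, 6 (SLC7A5, SLC3A2, GDF15, ATF5, HSPA5 and TRIB3) passed under all 13 alternatives. Without the replicate block 6 were higher and 2 lower, the adjusted p of PHGDH, SHMT2, PSAT1 and CEBPB then being 0.124, 0.0543, 0.102 and 0.101 by edgeR, and the lower count was 2 without untreated r1 or untreated r2, 3 without TGFB1 r1, 4 without TGFB1 r2 and 11 without TGFBRi r1 or TGFBRi r2. ASNS lay below 2 CPM in all 4 libraries and had a log2 change of -0.02 among G1 cells (adjusted p = 0.977 by edgeR), whose share of drug-susceptible cells was 33.4% and 31.3% untreated and 40.3% and 39.7% with TGFB1.

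Summed over all cells, TGFB1 called 9 members higher and 8 lower, where 16.3% of genes were higher and 12.7% lower. The higher count was 5 without the replicate block, without untreated r1 or without untreated r2, and without TGFB1 r1 it was 3, with 5 lower. The TGFB1 libraries hold more primed cells, and CEBPB, which is higher in primed cells, then had a log2 change of 0.07 (adjusted p = 0.506 by edgeR) in place of its lower value in drug-susceptible cells. SLC7A5 had 0.83 and TRIB3 -0.58. In primed cells SLC7A5 was at 22.4 and 14.5 CPM in untreated and at 23.0 and 23.2 CPM in TGFB1 libraries, nearly level in r1 and higher in r2.

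TGFBRi raised TRIB3 and NUPR1 and lowered SLC7A5 in drug-susceptible cells. SLC7A5 was at 20.1 and 23.0 CPM with TGFBRi (log2 fold change -0.71, adjusted p = 9.50e-07 by edgeR). TRIB3 was at 35.9 and 35.2 CPM (0.49, adjusted p = 8.47e-05). NUPR1 went from 30.6 and 24.1 to 50.4 and 36.7 CPM (0.68 ± 0.07 SE, adjusted p = 2.58e-06). The r1 and r2 values of NUPR1 differed in both groups, yet each treated library lay above both untreated ones.

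TGFBRi called 7 members higher and 1 lower, where 1.22% of all genes were higher and 1.59% lower. The median log2 change was 0.16 over the members and 0.00 over all genes. The higher members were ATF4 (142 and 139.6 CPM, 0.25, adjusted p = 0.0475 by edgeR), DDIT3 (29.5 and 36.9 CPM), NUPR1, TRIB3, SESN2 (5.64 and 6.03 to 7.78 and 8.01 CPM), PSAT1 (log2 fold change 0.31) and PYCR1 (70.6 and 72.9 CPM). SLC3A2, at 121 and 119 CPM, did not pass (-0.15, adjusted p = 0.302). TRIB3 and SLC7A5 passed under all 13 alternatives. Of the 7 higher members 1, TRIB3, was called without the replicate block, where the adjusted p was 0.358 for ATF4, 0.478 for DDIT3 and 0.157 for NUPR1 by edgeR, 3 were called among G1 cells and 2 without untreated r2. Summed over all cells, 5 members were higher and 1 lower, where 1.09% of genes were higher and 1.45% lower, with 1 higher without the replicate block, 2 higher without untreated r2 and 2 lower without TGFBRi r1.

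In drug-susceptible cells PI3Ki lowered PSAT1 and SLC1A4, and ATF4 in the fit with the replicate block. ATF4 went from 116 and 124 to 91.0 and 98.1 CPM (log2 fold change -0.25, adjusted p = 0.0178 by edgeR). PSAT1 went from 31.5 and 34.8 to 22.3 and 23.0 CPM (-0.45, adjusted p = 8.79e-05). SLC1A4, a carrier of alanine, serine and cysteine, went from 47.5 and 47.7 to 31.9 and 33.7 CPM (-0.44, adjusted p = 0.000120). In all 3 genes both treated libraries lay below both untreated ones.

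PI3Ki called 11 members lower and 2 higher, where 6.22% of all genes were lower and 5.89% higher, with a median log2 change of -0.16 over the members and 0.00 over all genes. The lower members were the transcription factors ATF4, CEBPB (57.8 and 63.3 CPM) and DDIT3 (19.1 and 22.7 CPM), the effectors TRIB3 (19.7 and 19.9 CPM) and GDF15 (105 and 92.3 CPM), the enzymes PSAT1, PHGDH (174 and 153 CPM), SHMT2 (84.6 and 82.6 CPM) and ALDH1L2, and the transporters SLC1A4 and SLC7A1 (45.7 and 46.1 to 36.7 and 36.9 CPM). Their log2 changes ran from -0.45 to -0.21. ATF5 (22.0 and 21.3 CPM, 0.27) and XBP1 (46.6 and 50.6 CPM, 0.21) were higher, and XBP1 turned to -0.04 among G1 cells (adjusted p = 0.823 by edgeR), where DDIT3 had -0.64 in place of -0.28. SLC7A5, at 30.7 and 28.8 CPM, did not pass (-0.16, adjusted p = 0.143).

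PSAT1 and SLC1A4 passed under all 13 alternatives. Without the replicate block 3 members were lower and 0 higher, with an adjusted p of 0.116 for ATF4, 0.238 for DDIT3 and 0.0656 for TRIB3 by edgeR, and the lower count was 4 without untreated r1, 5 without untreated r2, 3 without PI3Ki r1 and 4 without PI3Ki r2. G1 cells made up 43.5% and 43.8% of the drug-susceptible cells with PI3Ki and 33.4% and 31.3% untreated, and among G1 cells 12 members were lower. The share of all genes lower in that G1 fit is not given. Over all cells, 11 members were lower and 1 higher, where 6.83% of genes were lower and 5.83% higher. The lower count there was 4 without the replicate block, 4 without untreated r1, 5 without untreated r2, 2 without PI3Ki r1 and 7 without PI3Ki r2, and the higher count was 0 in each of these 5 fits and 3 without TGFBRi r1 or TGFBRi r2.

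**Figure D4:**
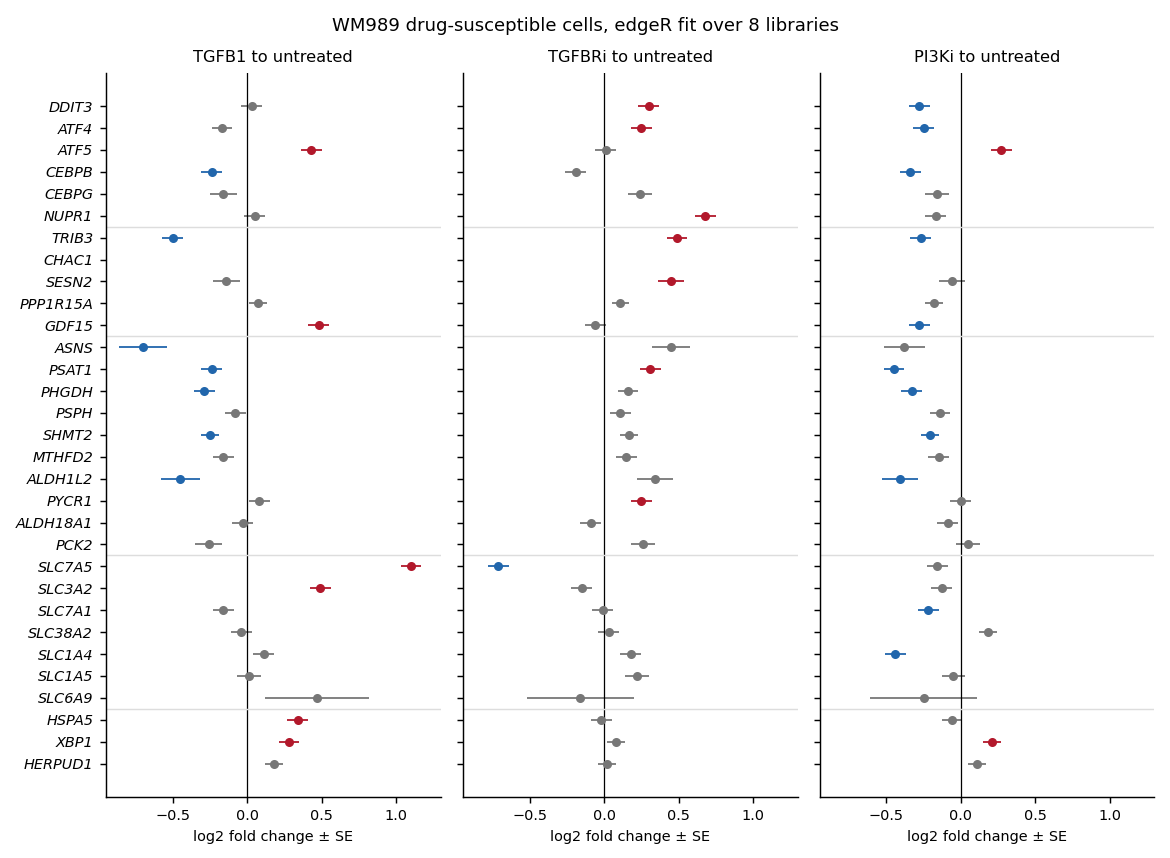
Log2 fold change to untreated libraries with its standard error for the 30 tested genes, grouped by role, in drug-susceptible WM989 cells given TGFB1, TGFBRi or PI3Ki, with red and blue for genes higher and lower at an adjusted p under 0.05 in edgeR. SLC7A5 lies at 1.10 with TGFB1 and at -0.71 with TGFBRi, and the 11 lower genes with PI3Ki lie between -0.45 and -0.21.

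By role, 5 of the 10 enzymes were lower and 0 higher with TGFB1, 2 were higher and 0 lower with TGFBRi, and 4 were lower and 0 higher with PI3Ki, the others not passing. Of the 7 transporters, 2 were higher with TGFB1, 1 was lower with TGFBRi and 2 were lower with PI3Ki, so 5, 6 and 5 did not pass. The shares over all genes given above for each treatment run from 1.22% to 8.56%. Of the 31 genes, 2 were called with every treatment, 10 with 2 treatments, 8 with 1 and 11 with none, the last group including the untested CHAC1. Across all cells, the summed level of the 31 genes was 1786 and 1766 CPM untreated, 1818 and 1836 CPM with TGFB1, 1872 and 1855 CPM with TGFBRi and 1499 and 1459.7 CPM with PI3Ki.

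**Figure D5:**
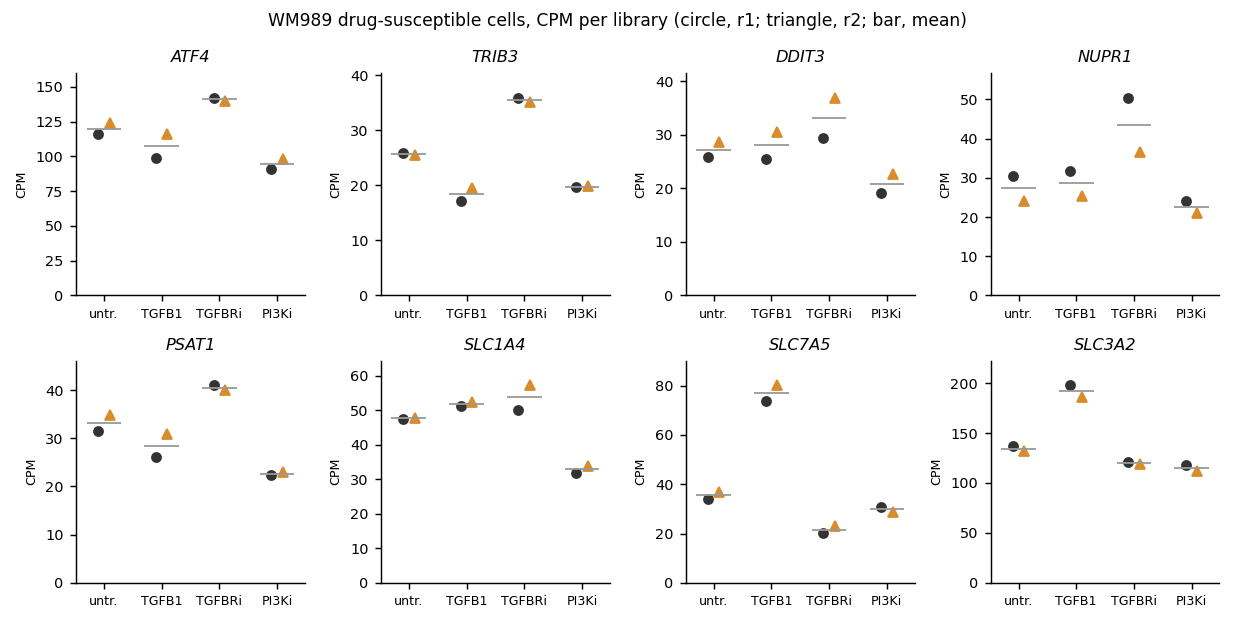
Level in CPM of 8 of the genes in drug-susceptible cells of each of the 8 libraries of the treatment experiment, with a circle for r1, a triangle for r2 and a bar for their mean. SLC7A5 is near 35 CPM untreated and at 73.6 and 80.2 CPM with TGFB1, and ATF4 is at 91.0 and 98.1 CPM with PI3Ki, below the 116 and 124 CPM of untreated cells.

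Thinned to 5000 UMIs per cell, 15.7% of untreated drug-susceptible cells held an SLC7A5 UMI, against 28.4% with TGFB1, 9.57% with TGFBRi and 13.0% with PI3Ki. For TRIB3 the shares were 11.9%, 8.35%, 15.0% and 9.22%. For both genes the order of the 4 groups was that of their CPM. Of the small primed groups, the 94 primed cells of untreated r1 held 221 CPM of DDIT3 and 97.6 CPM of TRIB3, against 50.7 and 43.9 CPM in untreated r2.

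Some of the other ATF4 targets changed more than the 31 genes did. SLC7A11 went from 9.43 and 12.2 CPM to 2.31 and 3.19 CPM with TGFB1 (log2 fold change -1.99, adjusted p = 6.18e-12 by edgeR) and had a change of 0.63 with TGFBRi. DDIT4 went from 146 and 149 to 52.9 and 51.0 CPM with PI3Ki (-1.41, adjusted p = 7.51e-13). The SLC7A5 change with TGFB1, at 1.10, was the widest among the 31 genes. Of these 20 targets, 3 were higher and 6 lower with TGFB1, 3 higher and 1 lower with TGFBRi, and 2 higher and 12 lower with PI3Ki. Over all genes the shares higher and lower were 8.56% and 6.32% with TGFB1, 1.22% and 1.59% with TGFBRi, and 5.89% and 6.22% with PI3Ki. ATF3, a stress-induced relative of ATF4, was lower with TGFB1 (-0.71) and PI3Ki (-0.97) and higher with TGFBRi (0.70).

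Of the 20 aminoacyl-tRNA synthetases, 1 was lower with TGFB1, 3 were higher with TGFBRi (WARS 0.36, AARS 0.33 and CARS 0.30) and 5 were lower with PI3Ki (CARS and YARS -0.44 and MARS -0.35 leading). Of the 10 genes for eIF2α, its kinases and eIF2B, EIF2B3 was lower with TGFB1 (-0.19) and none passed with TGFBRi or PI3Ki. Of the 15 ER chaperones and degradation genes, SDF2L1 was higher with TGFB1 (0.33) and PDIA4, EDEM1 and PDIA6 were lower with PI3Ki (-0.29, -0.29 and -0.26). Of the 6 mitochondrial chaperones and proteases, LONP1 was lower with TGFB1 and PI3Ki (-0.26 in both). Beside the shares over all genes given above, counts of 1 in these lists are not read as results about the lists.

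At the promoters of these genes, accessibility was not found to differ between sorted cells. For each gene the highest peak fold enrichment within 500 bases of the start of its principal transcript was compared between sorts with limma, on the log2 scale less the library median, over 18403 genes. Of the 31 members 30 had a value (CHAC1 did not have a peak there in all 12 libraries). No member passed an adjusted p of 0.05 by limma in either direction, where in EGFR_NGFR_High against Mix 1.01% of genes were higher and 0.456% lower, in EGFR_High 0.234% and 0.185%, and in NGFR_High 0.636% and 0.647%. At an unadjusted p under 0.05 the members numbered 3, 5 and 3 of 30, and 12.9%, 12.9% and 13.3% of all genes. No second tool was run.

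Fold enrichments below are given before the library median was taken off, whereas the log2 differences are after it, so the scales differ. Statements that libraries overlap or lie above others are on the values before it. ATF4 had fold enrichments of 97.2, 87.7 and 96.3 in Mix and of 112, 97.8 and 76.4 in EGFR_NGFR_High. The widest difference between these sorts was at PPP1R15A, with 38.5, 34.9 and 42.6 in Mix and 68.1, 52.0 and 50.6 in EGFR_NGFR_High (log2 difference 0.48 ± 0.16 SE, adjusted p = 0.202 by limma). There the 3 EGFR_NGFR_High libraries lay above the 3 Mix libraries, a gap that did not pass over all genes. At SLC7A5 the Mix libraries had 11.2, 11.3 and 12.6 and the EGFR_NGFR_High libraries 24.4, 18.4 and 8.44, which overlap. At SLC7A1 the Mix libraries had 59.6, 66.5 and 63.4 and the EGFR_High libraries 45.2, 52.0 and 40.6 (-0.40 ± 0.10 SE, adjusted p = 0.122 by limma). At CEBPB the Mix libraries had 41.7, 37.7 and 47.4 and the NGFR_High libraries 58.5, 53.4 and 48.0 (0.18 ± 0.10 SE, adjusted p = 0.470 by limma). At HERPUD1 the Mix libraries had 52.4, 47.6 and 52.8 and the NGFR_High libraries 72.4, 78.3 and 67.2 (0.36 ± 0.10 SE, adjusted p = 0.123 by limma), and these groups did not overlap. None of these differences passed the adjustment over all genes.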

How the data were processed

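Single-cell libraries of untreated WM989 and WM983B cells and of treated WM989 cells were analysed from the UMI counts the authors deposited, with their clusters, states and phases. The submitters' processing notes name Cell Ranger, Bowtie2 2.3.4.1, SAMtools 1.1, MACS2 2.1.1.20160309 and the build hg38, and the gene annotation is not given in the sources used here. The deposited peak files hold a fold enrichment (a ratio) and a −log10 q-value for each peak, called per library. The deposited mitochondrial percent of each cell was used as given. Filters on cells are those of the authors, and no doublet caller was run.

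Counts were summed per well or library, state and cluster, and CPM were computed from the sums. Library sums were tested with edgeR 4.0.16 (TMM, filterByExpr, quasi-likelihood, terms for replicate and treatment) and ATAC values with limma 3.58.1, with Benjamini-Hochberg adjustment over all genes at 0.05. Both fits were tested on simulated data. DESeq2 1.42.0, RLE size factors, no filter, other thresholds and windows, G1 cells alone and leaving out each library or well were alternatives. The cells name libraries r1 and r2 and the labels name them Mix and Primed, and which is which is not settled, so each was used by its treatment and r1 or r2. Same-numbered libraries of the treatment experiment deviated together (correlation 0.247 to 0.358 for drug-susceptible cells), and the study split the cells of 1 well over the treatments. The members and all gene lists were chosen with earlier results of these data known. All members are named, and from each other list at most 3 genes per direction with the largest change past the threshold. Promoter windows came from RefSeq (GRCh38.p14), whose 26 sequences equal those of hg38, and transcript starts from GENCODE release 44 (Ensembl canonical).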

Additional observations from a re-analysis of the deposited data

Results flagged for a closer look

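GDF15 had a primed to drug-susceptible ratio of 0.324 in WM983B and of 1.69 in untreated WM989 cells. It stood out because the direction differed between these samples, and the difference was not tested, WM983B being 1 library. The direction also differed within WM989, since in the treatment experiment GDF15 was lower in primed cells in 7 of 8 libraries (56.8 CPM over all primed cells, 126 CPM over the others). In untreated WM989 cells, primed cells held more GDF15 than the drug-susceptible cells of their own well in 6 of 8 wells.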

How the results depend on the processing

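Of the counts of members called between treatments, 109 stayed within 1.5 times their reported value under an alternative and 47 moved. For single members in those tests, 2053 comparisons kept direction and side of the threshold, 219 lost the call, 57 gained it and 1 reversed, XBP1 with PI3Ki in drug-susceptible cells (-0.04 among G1 cells). Without the replicate block in drug-susceptible cells, TGFB1 called 2 lower, TGFBRi 1 higher and PI3Ki 0 higher and 3 lower. Over all cells the fit without the replicate block gave TGFB1 5 higher, TGFBRi 1 higher and PI3Ki 0 higher and 4 lower. Among G1 cells, TGFBRi called 3 members higher in drug-susceptible and 2 in all cells, and PI3Ki 0 higher in both. PI3Ki called 1 higher in drug-susceptible cells by DESeq2 and 1 with no filter on low counts. Leaving out each library in turn gave, in drug-susceptible cells, 5 to 7 higher and 2 to 11 lower for TGFB1, 2 to 7 higher and 1 to 2 lower for TGFBRi, and 0 to 3 higher and 3 to 13 lower for PI3Ki. Over all cells it gave 3 to 10 higher and 5 to 8 lower for TGFB1 (lowest without TGFB1 r1), 2 to 7 higher and 1 to 2 lower for TGFBRi (lowest without untreated r2), and 0 to 3 higher and 2 to 12 lower for PI3Ki (lowest lower count without PI3Ki r1). In untreated WM989 cells a 2-fold call left 3 higher and 3 lower in the primed state and 0 lower in cluster 10, and G1 cells alone gave 0 lower in cluster 10. A rule added after seeing the data, 1.5-fold in r1 and in r2 each, gave 19 higher and 0 lower in cluster 10 and 4 higher and 6 lower in the primed state. The floor of 20 CPM set on drug-susceptible cells, also added after seeing the data, gave 17 higher and 1 lower in cluster 10, 6 and 6 in the primed state and 0 and 1 in WM983B. Leaving out each well gave 19 to 20 higher and 0 to 1 lower in cluster 10 and 4 to 7 higher and 6 to 7 lower in the primed state. In WM983B, 2 members were higher with no filter on low values and 3 among G1 cells, and 2 were lower with no filter, among G1 cells and with TMM scaling. Same-numbered ATAC libraries correlated at -0.0330 to 0.120 and were not paired, and the replicate block and the other ATAC alternatives gave 0 calls among the members. Except where an alternative tests fewer samples, the cause of these moves was not tested. For alternatives other than the floor set on drug-susceptible cells, the share of all genes called is not given. Outside the TGFB1 libraries, primed cells of the treatment experiment number 25 to 271 per library, and CHAC1 is too low to be read in WM989 cells at this depth.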
